A study of Mus musculus with 163 samples.

Results

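Transcripts of 10 genes of the spindle checkpoint and the Aurora kinases, Mad2l1, Bub1, Bub1b, Bub3, Ttk, Aurka, Aurkb, Aurkc, Plk1 and Cenpe, were followed through oocyte growth in culture and in mice. They were taken by gene symbol from a table of 21950 genes, each matched to its Entrez identifier, and all 10 were found. Read counts came from single mouse oocytes in 7 groups, with 1 library per oocyte. Growing oocytes (GROs) were 23 derived from BVSC-iPSCs, 24 derived from gonads and 24 from in vivo. Fully grown oocytes (FGOs) were 24 derived from BVSC-iPSCs, 24 derived from gonads, 24 grown from follicles taken at 6 days post partum (6 dpp) and 20 from in vivo.

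The BVSC-iPSC line is 1 female induced pluripotent stem cell line that carries Blimp1-Venus and Stella-ECFP reporters, and no other group carried them by its labels. Its germ cells were made in culture (IVP), joined with somatic cells of E12.5 female gonads to form reconstituted ovaries (IVD) and then grown as follicles (IVG). The gonadal somatic cells can bring residual germ cells of their own, so an oocyte of this group need not descend from the line. For the gonad-derived groups, E12.5 gonads were dissociated and reaggregated with their own germ cells, which then passed through IVD and, for FGOs, IVG. The 6 dpp oocytes developed in the mouse up to the follicle stage and passed through IVG only. The labels give neither strain nor age for the in vivo oocytes. Every oocyte was freed of follicle cells and of its zona before lysis. No label names the animal, gonad or culture behind an oocyte, so each group counted as 1 sample, no comparison had a replicate check, and no p-value is given for any of them.

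The spindle checkpoint delays anaphase until every kinetochore, the protein plate on a centromere, is held by spindle microtubules. The kinase Ttk (also called Mps1) starts it by recruiting Bub1 with Bub3 to kinetochores, and Mad2l1 (Mad2), Bub1b (BubR1) and Bub3 then bind Cdc20 and keep the anaphase-promoting complex (APC/C) off its targets. Cenpe is the kinesin motor that carries chromosomes to the spindle equator. Aurka builds spindle poles and works with Plk1, while Aurkb and Aurkc are the kinases of the chromosomal passenger complex, which releases wrongly attached microtubules. Aurkc is the germ cell member of that pair. Oocytes store these transcripts during growth and use them in the meiotic divisions, and weak checkpoint control in oocytes is known for its link with aneuploid eggs.

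All 10 genes are on autosomes of GRCm38. Bub1b (Entrez 12236, chromosome 2, 118598202 to 118641592), Bub1 (12235, chromosome 2, 127800197 to 127831859) and Aurka (20878, chromosome 2, 172356190 to 172370886) share a chromosome. Aurkc (20871, chromosome 7, 6995347 to 7003091), Plk1 (18817, chromosome 7, 122159435 to 122169884) and Bub3 (12237, chromosome 7, 131560367 to 131571895) share another. The remaining genes are Cenpe (229841, chromosome 3, 135212563 to 135273540), Mad2l1 (56150, chromosome 6, 66535221 to 66541107), Ttk (22137, chromosome 9, 83834651 to 83872390) and Aurkb (20877, chromosome 11, 69045624 to 69051664). In GENCODE vM21, exons of 9 of the 10 genes share no base with exons of another gene. Plk1 shares 156 exonic bases with Gm44985 on the opposite strand. As the methods do not say whether counting used the strand, the reads of Plk1 could include those of Gm44985. No pseudogene named after a member was found in that annotation.

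The sequence just upstream of the start is shown for the member with the greatest change during growth (Bub1b), for Ttk, which also differed between the stages, and for Aurkc, which differed most between iPSC-derived and in vivo oocytes. Sequences are from RefSeq (GRCm38.p6, all 3 on the plus strand) and stop before the first annotated exon base. Capitals mark CCAAT or its reverse complement ATTGG, the box that nuclear factor Y binds in many cell cycle promoters.
Bub1b, chr2:118597961-118598201: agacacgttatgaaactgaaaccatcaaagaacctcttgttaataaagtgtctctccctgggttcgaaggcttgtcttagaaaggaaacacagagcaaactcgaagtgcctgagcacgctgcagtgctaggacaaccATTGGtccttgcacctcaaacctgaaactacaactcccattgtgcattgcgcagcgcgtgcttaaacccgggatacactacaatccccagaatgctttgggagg
Ttk, chr9:83834439-83834650: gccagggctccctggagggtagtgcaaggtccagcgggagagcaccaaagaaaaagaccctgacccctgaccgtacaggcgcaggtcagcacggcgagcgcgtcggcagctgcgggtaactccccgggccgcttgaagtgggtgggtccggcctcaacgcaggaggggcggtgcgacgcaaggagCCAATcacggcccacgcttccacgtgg
Aurkc, chr7:6995135-6995299: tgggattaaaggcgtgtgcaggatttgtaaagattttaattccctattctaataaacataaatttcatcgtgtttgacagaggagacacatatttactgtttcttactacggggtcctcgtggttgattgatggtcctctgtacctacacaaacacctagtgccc
In the 250 bases before the start, CCAAT on either strand was found for 7 of the 9 members that have a RefSeq promoter (8 of 10 windows, as the 2 windows of Bub3 overlap and hold the same sites), and in 33.85% of all 32851 promoters in that table. Some of these windows lie in annotated genes. All 250 bases of the Aurka window lie within its RefSeq gene, and 217 bases of the Plk1 window and all 250 of 1 Bub3 window lie in GENCODE exons. How often this holds for all promoters is not given. The Bub1b window held 1 match, 113 bases before the start, and the Ttk window held 2, at 65 and 28 bases, of which the nearer lies outside the stretch shown. Neither Mad2l1 nor Aurkc had these letters in its window. TTTGAA, the core of the cell cycle homology region, was found for Bub3, at a site that both its windows hold, and for no other member, against 15.99% of all promoters. TAATTG, a core bound by the oocyte factor Nobox, was in no member's window, against 7.169% of all promoters. TTTGAA and TAATTG were read on both strands, no match overlapped a match to another of the 3 motifs in the stretches shown, and a match is only a description of the letters.

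The libraries had a median of 6.93 M reads (M, 1000000), from 2.17 to 13.7 M, and 145 to 166 M reads per group. Counts were divided by the total of the library and given as counts per 1000000 reads (CPM), which is a share of the RNA and not an amount per oocyte. No member was counted with fewer than 79 reads in any oocyte. At the median oocyte of a group, counting error was between 0.921% and 6.58% of a member's level, and the spread between oocytes (coefficient of variation of CPM) ran from 7.29% for Plk1 in 6 dpp FGOs to 54.3% for Cenpe in gonad-derived FGOs. The last value rests on oocyte 19, without which it was 27.3%, and the next highest was 36.0% for Bub1b in iPSC-derived GROs. All 12 oocyte markers were present in every group, and their summed level had group medians between 62530 and 72730 CPM in GROs and between 28770 and 50800 CPM in FGOs. Summed levels of 12 granulosa markers ranged from 156 to 421 CPM in GROs and from 261 to 1927 CPM in FGOs, with 1927 CPM in 6 dpp FGO 12 and 602 CPM in in vivo FGO 19 as the highest. Of these markers Serpine2 was the most abundant in every group, at 187 to 306 CPM pooled, followed by Cyp19a1 in FGOs, at 61.9 to 77.2 CPM. Pooled Gja1 was at 60.03 CPM in 6 dpp and 30.6 CPM in in vivo FGOs and at most 8.29 CPM elsewhere. No level without 6 dpp FGO 12 is given, so how far the pooled 6 dpp values rest on that oocyte is not known. Amh, Fshr and Amhr2 were at most 1.10, 3.23 and 0.331 CPM in any group, with Amhr2 at 0 in iPSC-derived FGOs, and Inhbb was at 0 in gonad-derived GROs. Nr5a2 was at 16.8 to 27.3 CPM and Kitl at 5.36 to 15.7 CPM over the groups. Inhba and Hsd17b1 were highest in 6 dpp FGOs, at 9.91 and 8.045 CPM pooled. The part of these transcripts in the results was not tested. The 5 markers of proliferating cells that were in the table summed to 420 to 973 CPM over all oocytes.

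Some libraries stood apart for the genes described here. In gonad-derived FGO 19, which had 6.96 M reads, 7 of the 10 members lay outside the range of the other 23 oocytes of the group. Mad2l1 was at 849 CPM there (283 to 431 CPM in the others) and Cenpe at 761 CPM (135 to 307 CPM). Bub3 was at 78.2 CPM (334 to 481 CPM), Aurka at 312 CPM (527 to 742 CPM), Ttk at 268 CPM (374 to 618 CPM), Bub1 at 39.4 CPM (45.6 to 82.9 CPM) and Aurkb at 14.1 CPM (26.5 to 62.3 CPM). The deviation was not particular to these genes, since 66.8% of 7155 genes with a median of at least 10 CPM were outside the range of the other oocytes in this library, against at most 9.31% in any other oocyte of the group. The main values that move with it are given with and without it.

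A set of 7 in vivo GROs, numbers 17 to 22 and 24, also stood apart, which was noticed from Bub1 after the values were seen. Bub1 was at 19.7 to 36.8 CPM in these 7 and at 51.0 to 74.3 CPM in the other 17 oocytes of the group. The set held the 6 lowest values of the group for Ttk (lowest 197 CPM, against at least 277 CPM in the other 17) and the 6 lowest for Mad2l1 (lowest 250 CPM, against at least 290.0 CPM). It held the 4 highest for Cenpe (up to 295 CPM, against at most 220.0 CPM) and the 4 highest for Aurkc (up to 63.3 CPM, against at most 56.7 CPM). The set also held the 2 lowest values for Aurka, the 2 lowest for Aurkb and the 1 lowest for Plk1. For Bub1b and Bub3 the set lay within the range of the others. No share of all genes that split these oocytes in this way is given, so the split need not be particular to the members. Over the 24 in vivo GROs Bub1 had an r of 0.75 with Ttk, 0.73 with Mad2l1 and -0.72 with Cenpe (Pearson, log2(CPM + 0.5)). The labels do not say what the numbers stand for, and whether these oocytes share a source was not tested. Without the set the ratio of fully grown over growing in vivo oocytes (log2, pooled CPM + 0.5) went from 0.06 to -0.17 for Bub1, a change that follows from how the set was found. It went from 0.76 to 0.65 for Ttk, from 0.18 to 0.11 for Mad2l1, from 0.67 to 0.82 for Cenpe and from 0.49 to 0.59 for Aurkc.

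**Figure D1:**
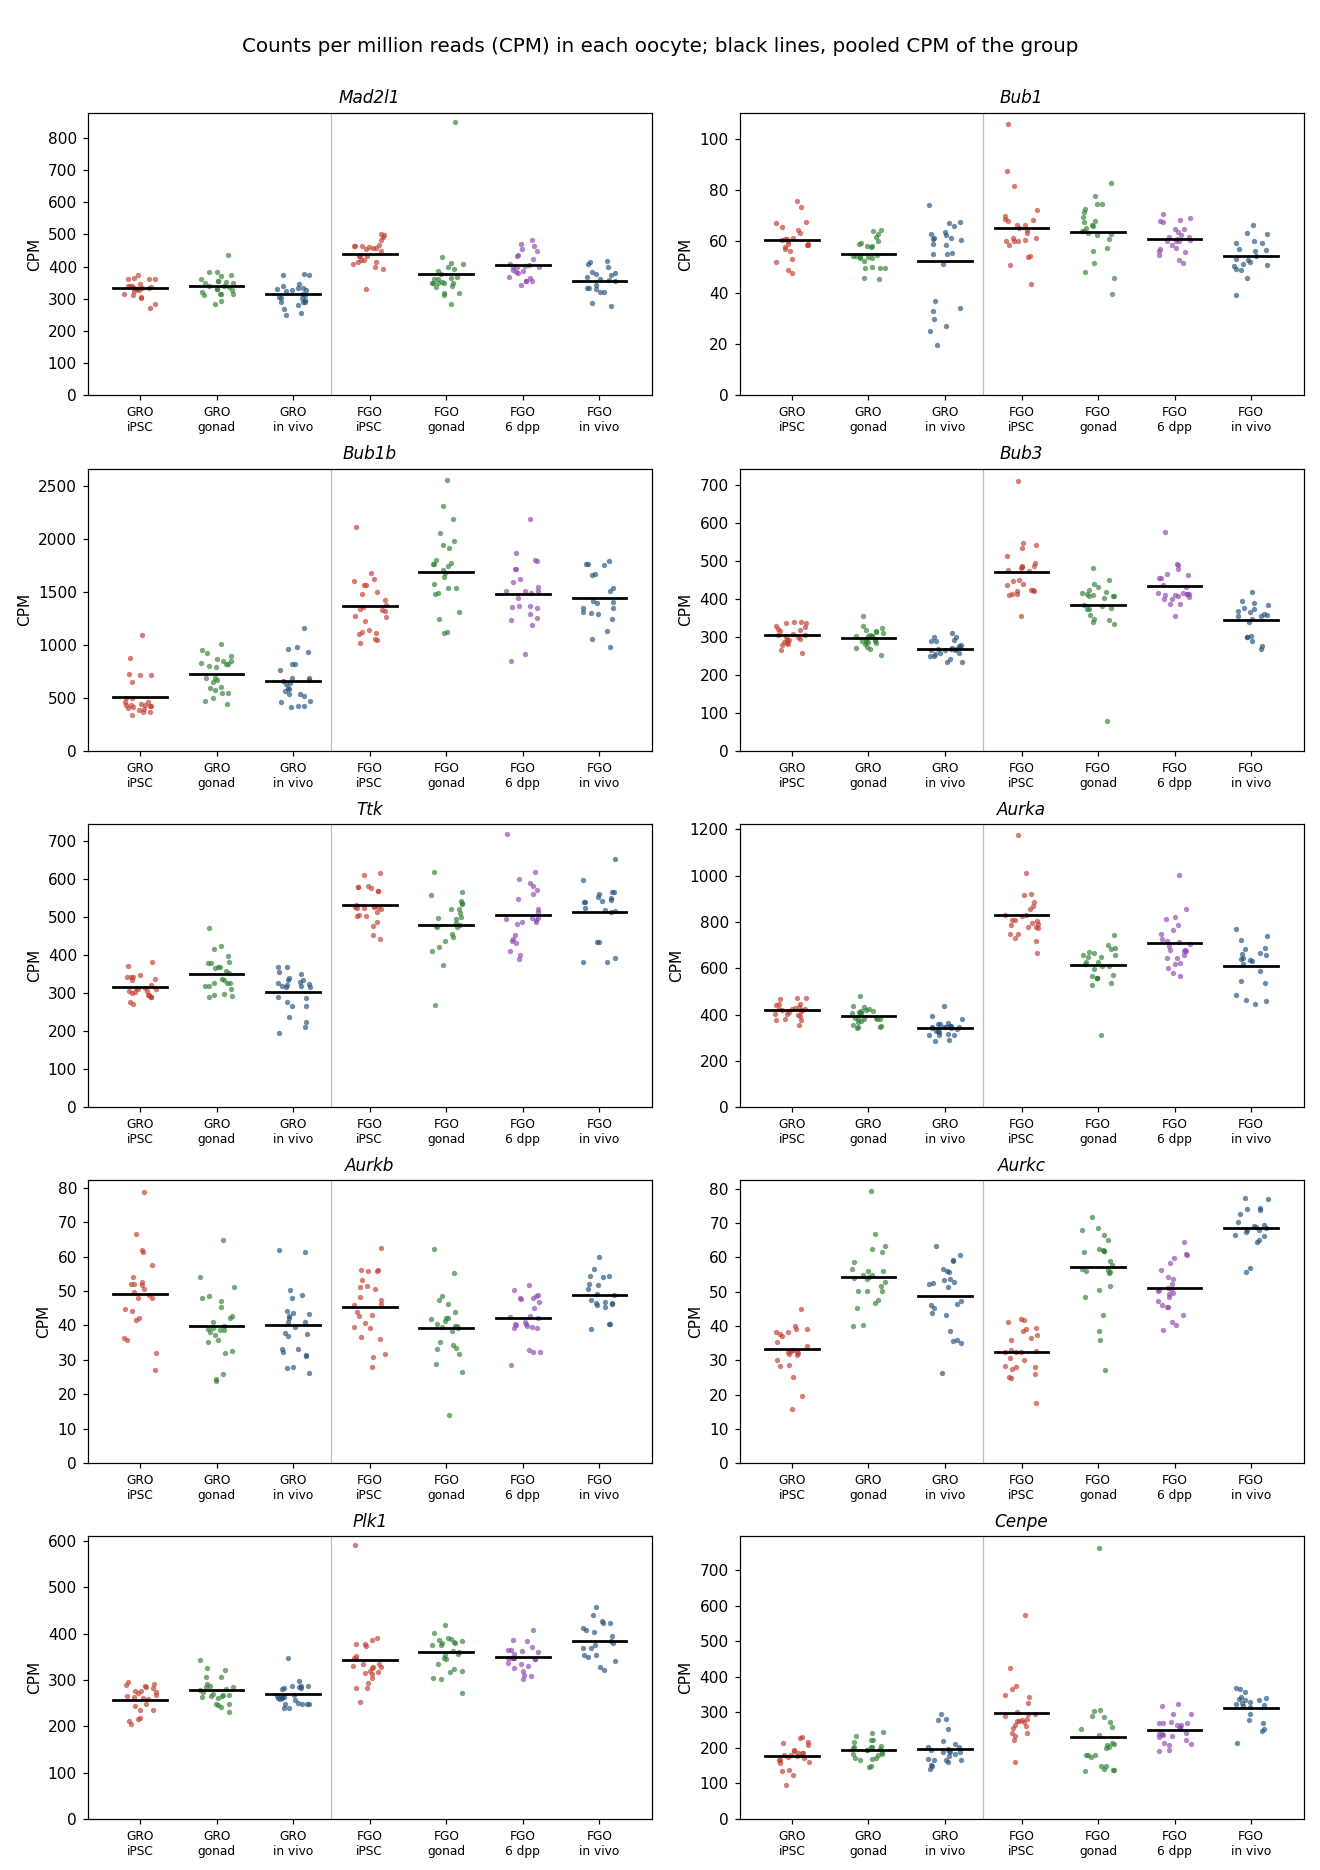
CPM of each member in each oocyte (points), by group on the horizontal axis, with the pooled CPM of the group as a black line. Bub1b, Ttk and Aurka are higher in FGOs than in GROs from each source, Aurkc is lower in both iPSC-derived groups, and the single point of gonad-derived FGO 19 lies at 849 CPM for Mad2l1 and 78.2 CPM for Bub3.

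Levels of different genes were compared only per kilobase of the exonic length in the table, as pooled CPM per kilobase. On this scale Mad2l1 was the most abundant member in all 3 GRO groups, at 218 CPM per kilobase in iPSC-derived, 224 in gonad-derived and 207 in in vivo GROs. In FGOs Bub1b led in the gonad-derived (367), 6 dpp (322) and in vivo (313) groups, and Aurka led in the iPSC-derived group (367). The least abundant was Aurkb in every group, at 17.3 to 21.4 CPM per kilobase, apart from iPSC-derived GROs, where Cenpe was at 18.3 and Aurkb at 21.6. The median member stood at percentile 95.9 to 97.4 of all 21950 genes in each group, a set that includes genes with few or no reads. This value does not describe the lower members, such as Aurkb. The order of the members and the percentile depend on the lengths in the table, which equal no GENCODE transcript length for any member. The table has 1519 bases for Mad2l1, 2375 for Bub3 and 1432 for Bub1, while their longest GENCODE transcripts have 7557, 4015 and 3421. With the longest transcripts as lengths, Aurka led in iPSC-derived (219.9 CPM per kilobase) and gonad-derived GROs (206) and Bub1b in in vivo GROs (180.4), and the leading genes of the FGO groups stayed as given. Bub1 was then the lowest member in every group, at 15.3 to 19.1 CPM per kilobase.

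The first question was how the checkpoint transcripts change as oocytes grow. A ratio here is the log2 of pooled CPM + 0.5 in FGOs over that in GROs, and 2-fold apart means a log2 ratio of at least 1 or at most -1. All 10 members had a higher pooled level in in vivo FGOs than in in vivo GROs, with ratios from 0.06 to 1.12, although Bub1 was lower by the ratio of medians (-0.14) and without the 7 GROs that stood apart (-0.17). The median member ratio was 0.50, against -0.11 over 13148 genes, of which 43.8% were higher in FGOs. 1 member, Bub1b, was at least 2-fold apart, and 23.7% of all genes were. In gonad-derived oocytes 9 of 10 members were higher in FGOs, against 46.7% of genes. The median member ratio there was 0.31 and the median over all genes -0.05. Again 1 member was at least 2-fold apart, against 15.8% of genes. In iPSC-derived oocytes 8 of 10 were higher, against 43.45% of genes, with medians of 0.52 and -0.11. There 1 member was at least 2-fold apart, against 22% of genes. The exceptions were Aurkb in both cultured sources, whose ratio in gonad-derived oocytes turned positive with TMM (0.003) or DESeq2 (0.02) scaling, by medians (0.02) and without gonad-derived FGO 19 (0.02), and Aurkc in iPSC-derived oocytes, whose ratio turned positive with either scaling (0.05).

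These 3 growth comparisons share no library. 8 of 10 members, Bub1 among them with the exceptions just given, were higher in FGOs in all 3 of them, and so were 26.3% of 12478 genes. Bub1b was at least 2-fold higher in all 3, as were 3.11% of the genes. Oocytes of the GRO and FGO stage did not overlap, with every FGO higher, for 2 members in vivo (Ttk and Aurka), where 2.26% of genes did so, and for the same 2 without the 7 in vivo GROs, where 3.28% did. The same held for 3 members in iPSC-derived oocytes (Bub3, Ttk and Aurka), against 2.39% of genes. In gonad-derived oocytes it held for 1 member (Bub1b), against 1.36% of genes, and for 2 (Bub1b and Aurka) without gonad-derived FGO 19, against 1.75% of genes.

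Bub1b, the BubR1 subunit of the checkpoint complex, had the greatest growth ratio of the 10 in every source. In in vivo GROs it ranged from 412 to 1158 CPM with a median of 638 CPM, and in in vivo FGOs from 979 to 1795 CPM with a median of 1401 CPM. In gonad-derived GROs it ranged from 446 to 1007 CPM (median 741 CPM), and in gonad-derived FGOs from 1112 to 2551 CPM (median 1728 CPM). In iPSC-derived GROs it ranged from 338 to 1095 CPM (median 439 CPM), and in iPSC-derived FGOs from 1023 to 2107 CPM (median 1336 CPM). Every gonad-derived FGO was above every gonad-derived GRO, while 17 of 20 in vivo FGOs and 21 of 24 iPSC-derived FGOs were above every GRO of their source. Pooled levels were 662 CPM (95% exact Poisson interval 658 to 666) in in vivo GROs and 1438 CPM (1432 to 1444) in in vivo FGOs, a log2 ratio of 1.12 that ran from 1.10 to 1.17 with any 1 oocyte left out. These intervals cover counting error only, since amplified reads are not independent molecules. The ratio was 1.21 (1.18 to 1.23) in gonad-derived and 1.42 (1.38 to 1.48) in iPSC-derived oocytes. The 6 dpp FGOs, which have no GRO group of their own, ranged from 845 to 2186 CPM (median 1498 CPM), and 2 of them (845 and 917 CPM) were below every other FGO. The one at 917 CPM is oocyte 12, the library with the highest granulosa sum. Its summed theca and stroma markers were also the highest of the group, at 189 CPM (group median 5.66 CPM).

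Its partners in the complex changed less. Bub3, which holds Bub1 and Bub1b, had growth ratios of 0.36 in vivo, 0.37 in gonad-derived and 0.62 in iPSC-derived oocytes. All 24 iPSC-derived FGOs were above all 23 iPSC-derived GROs for Bub3, as were 14 of 20 in vivo FGOs above all in vivo GROs. Mad2l1, the subunit that changes shape to hold Cdc20, had growth ratios of 0.18, 0.15 and 0.41 in the same order, and the ratio in gonad-derived oocytes was 0.06 without gonad-derived FGO 19. In iPSC-derived oocytes 23 of 24 FGOs were above every GRO for Mad2l1, against 6 of 20 in vivo. Bub1, the kinase that marks centromeric chromatin, had growth ratios of 0.06, 0.21 and 0.10, and its ranges overlapped in all sources. With these unequal changes the ratio of Bub1b to Bub1 per kilobase went from 3.95 in in vivo GROs to 8.23 in in vivo FGOs, from 4.13 to 8.26 in gonad-derived and from 2.63 to 6.55 in iPSC-derived oocytes. These ratios depend on the lengths in the table, while their changes between stages do not.

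Ttk, the kinase at the head of the checkpoint, followed Bub1b and Aurka in the size of its change in vivo. Without the in vivo GROs that stood apart, its ratio was below that of Cenpe, as given above. Ttk ranged from 197 to 370 CPM (median 320 CPM) in in vivo GROs and from 381 to 653 CPM (median 540 CPM) in in vivo FGOs, so the stages did not overlap. In iPSC-derived oocytes it ranged from 273 to 383 CPM in GROs and from 443 to 616 CPM in FGOs, again with no overlap. The gonad-derived ranges, 289 to 472 CPM in GROs and 268 to 618 CPM in FGOs, overlapped. Growth ratios were 0.76 in vivo, 0.45 in gonad-derived and 0.75 in iPSC-derived oocytes. With any 1 oocyte left out they stayed between 0.74 and 0.78, between 0.43 and 0.47 and between 0.74 and 0.76. In in vivo FGOs the 5 oocytes of lowest Ttk level, at or below 435 CPM, were numbers 5, 7, 16, 19 and 22, while the next lay at 513 CPM. The study left those same 5 oocytes out of its own fits when it chose oocytes by size, and without them the in vivo growth ratio of Ttk was 0.86. Of these 5, oocytes 5, 7, 19 and 22 were the 4 lowest for Aurka (at or below 487 CPM, the next at 537 CPM). They were also among the 6 lowest of the group for Bub3, Plk1 and Cenpe.

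Among the mitotic kinases Aurka showed the clearest change. In in vivo GROs it ranged from 288 to 436 CPM (median 344 CPM) and in in vivo FGOs from 446 to 770 CPM (median 637 CPM). In iPSC-derived GROs it ranged from 357 to 472 CPM (median 421 CPM) and in iPSC-derived FGOs from 665 to 1177 CPM (median 806 CPM). In gonad-derived GROs it ranged from 344 to 482 CPM (median 387 CPM) and in gonad-derived FGOs from 312 to 742 CPM (median 623 CPM), where the lowest value is that of oocyte 19 and the next was 527 CPM. Growth ratios were 0.83, 0.98 and 0.64 in vivo, in iPSC-derived and in gonad-derived oocytes. The iPSC-derived ratio lay just under 2-fold and passed it with TMM scaling (1.06) or DESeq2 size factors. Plk1, the Polo-like kinase that acts at kinetochores and spindle poles, had smaller ratios of 0.52, 0.41 and 0.37, with 17 of 20, 20 of 24 and 17 of 24 FGOs above every GRO of their source.

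Cenpe, the kinesin, had growth ratios of 0.67 in vivo and 0.76 in iPSC-derived oocytes. It ranged from 140 to 295 CPM (median 189 CPM) in in vivo GROs and from 214 to 367 CPM (median 325 CPM) in in vivo FGOs, so that 15 of 20 in vivo FGOs were above every in vivo GRO. In iPSC-derived oocytes it ranged from 96.3 to 231 CPM in GROs and from 160 to 572 CPM in FGOs, and 22 of 24 FGOs were above every GRO. The gonad-derived ratio of 0.24 rested largely on 1 library, since it was 0.09 without gonad-derived FGO 19. There the medians were 196 CPM in GROs and 205 CPM in FGOs.

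Aurkb and Aurkc, the passenger complex kinases, had growth ratios near 0 in culture. The growth ratios of Aurkb were 0.27 in vivo, -0.02 in gonad-derived and -0.11 in iPSC-derived oocytes, and those of Aurkc were 0.49, 0.07 and -0.03. In vivo 18 of 20 FGOs were above every GRO for Aurkc. In gonad-derived and iPSC-derived oocytes no FGO was above every GRO for either gene.

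**Figure D2:**
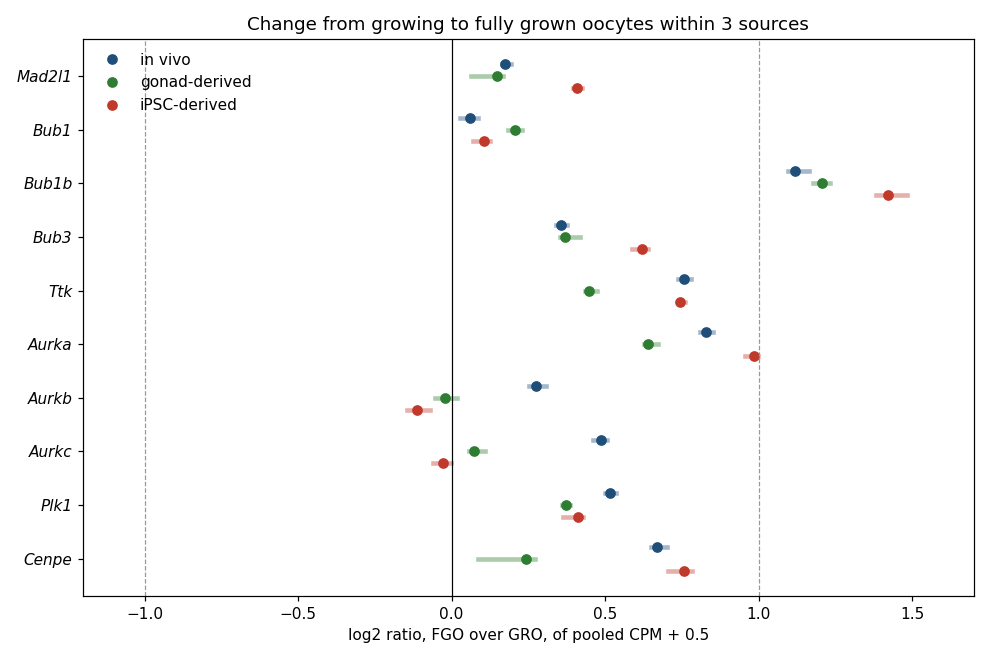
Log2 ratio of pooled CPM + 0.5 in FGOs over GROs for each member (rows) within 3 sources (colours), with pale bars for the range when any 1 oocyte is left out and dashed lines at 2-fold. Bub1b lies beyond 2-fold in all 3 sources, at 1.12, 1.21 and 1.42, and Aurkb and Aurkc lie between -0.11 and 0.49.

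The second question was what each step of culture changes, read by setting sources that differ in that step against each other at 1 stage. These comparisons share groups with each other and with the growth comparisons. The IVP comparisons also set 1 cell line against germ cells of mouse gonads, so the line and the step cannot be told apart. The study reports that iPSC-derived and gonad-derived GROs were larger than in vivo GROs. Oocyte size thus differs within IVD@GRO, within iPSC-derived over in vivo GROs, and between the GROs that the growth ratios use. The part of size in these ratios was not tested. By the study's methods IVG was also shorter for gonad-derived and 6 dpp follicles than for iPSC-derived follicles. In IVP@GRO (iPSC-derived over gonad-derived GROs) none of the 10 members was at least 2-fold apart, against 3.83% of 13029 genes. In IVD@GRO (gonad-derived over in vivo GROs) none was, against 7.04% of genes, and member ratios stayed between -0.01 and 0.21, or between -0.15 (Bub1) and 0.26 (Aurkc) without the 7 in vivo GROs that stood apart. In IVP@FGO (iPSC-derived over gonad-derived FGOs) none was, against 6.21%. In IVD@FGO (gonad-derived over 6 dpp FGOs) none was, against 2.59%, with member ratios from -0.21 to 0.19, or from -0.28 (Cenpe) to 0.19 without gonad-derived FGO 19. In IVG@FGO (6 dpp over in vivo FGOs) none was, against 4.38%, with ratios from -0.42 to 0.33. Over the whole of culture, iPSC-derived over in vivo GROs had none against 9.99% of genes. Among FGOs the same comparison had 1 member at least 2-fold apart, Aurkc, against 14.5% of genes. No count of genes beyond 2-fold in these comparisons had a replicate check, and the small member counts are near or below the background shares.

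Aurkc, the germ cell kinase of the passenger complex, was the member that differed most between sources. In iPSC-derived GROs it ranged from 15.7 to 45.0 CPM (median 32.7 CPM), in gonad-derived GROs from 40.0 to 79.3 CPM (median 54.0 CPM) and in in vivo GROs from 26.2 to 63.3 CPM (median 51.9 CPM). Of the 23 iPSC-derived GROs, 22 were below every gonad-derived GRO, and the pooled levels were 33.2 CPM (95% interval 32.3 to 34.0) and 54.3 CPM (53.1 to 55.4). In iPSC-derived FGOs it ranged from 17.5 to 41.9 CPM (median 32.5 CPM) and in in vivo FGOs from 55.6 to 77.5 CPM (median 68.8 CPM), so that all 24 were below all 20, which 2.04% of genes did in this direction. Gonad-derived FGOs ranged from 27.2 to 71.7 CPM (median 57.3 CPM) and 6 dpp FGOs from 38.8 to 64.6 CPM (median 50.2 CPM). The medians of both lay between those of iPSC-derived and in vivo FGOs, and their ranges overlapped both. Log2 ratios of Aurkc were -0.70 in IVP@GRO, -0.81 in IVP@FGO and -0.42 in IVG@FGO. In IVD@GRO (gonad-derived over in vivo) the ratio was 0.15 and in IVD@FGO (gonad-derived over 6 dpp) 0.17, while the pooled level of gonad-derived FGOs (57.2 CPM) was below that of in vivo FGOs. Over the whole of culture Aurkc had ratios of -0.55 in GROs and -1.06 in FGOs, where the pooled levels were 32.5 CPM (31.7 to 33.4) and 68.5 CPM (67.2 to 69.9). With any 1 oocyte left out the FGO ratio stayed between -1.08 and -1.04, and with the oocytes that the study used it was -1.10.

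The other Aurora kinases went the other way or stayed near 0 in iPSC-derived oocytes. Aurka had ratios of 0.09 in IVP@GRO and 0.43 in IVP@FGO, and 21 of 24 iPSC-derived FGOs were above every gonad-derived FGO. Over the whole of culture Aurka was at 829 CPM in iPSC-derived and 610 CPM in in vivo FGOs, a ratio of 0.44 that was 0.31 with the oocytes that the study used. Aurkb had ratios of 0.30 in IVP@GRO and 0.21 in IVP@FGO, with ranges that overlapped.

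Per kilobase Aurka made up most of the summed Aurora transcripts in every group, from 74.6% in in vivo GROs to 89.6% in iPSC-derived FGOs. The pooled share of Aurkc was 10.0% in iPSC-derived GROs, 16.5% in gonad-derived and 16.7% in in vivo GROs. Among FGOs its share was lowest in iPSC-derived (5.54%), followed by 6 dpp (9.64%), gonad-derived (12.1%) and in vivo oocytes (14.1%). By oocyte it ranged from 3.40% to 7.11% in iPSC-derived FGOs and from 12.48% to 18.0% in in vivo FGOs, with no overlap. In gonad-derived FGOs it ranged from 6.92% to 23.1%, and up to 14.7% without oocyte 19. Aurkc stood at 2.16 times Aurkb per kilobase in gonad-derived GROs, 1.93 times in in vivo GROs and 1.07 times in iPSC-derived GROs. For FGOs these values were 2.31 (gonad-derived), 2.24 (in vivo), 1.92 (6 dpp) and 1.14 (iPSC-derived). Aurkc exceeded Aurkb in each of the 24 gonad-derived, 24 6 dpp and 20 in vivo FGOs, and in 20 of 24 iPSC-derived FGOs. Among GROs it did so in all 24 gonad-derived, 22 of 24 in vivo and 12 of 23 iPSC-derived oocytes. These values too rest on the lengths in the table. With the longest GENCODE transcripts Aurkc was at 0.940 times Aurkb in iPSC-derived GROs and 0.997 times in iPSC-derived FGOs, so that the order of both turned there, and at 1.68 to 2.03 times in the other groups.

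**Figure D3:**
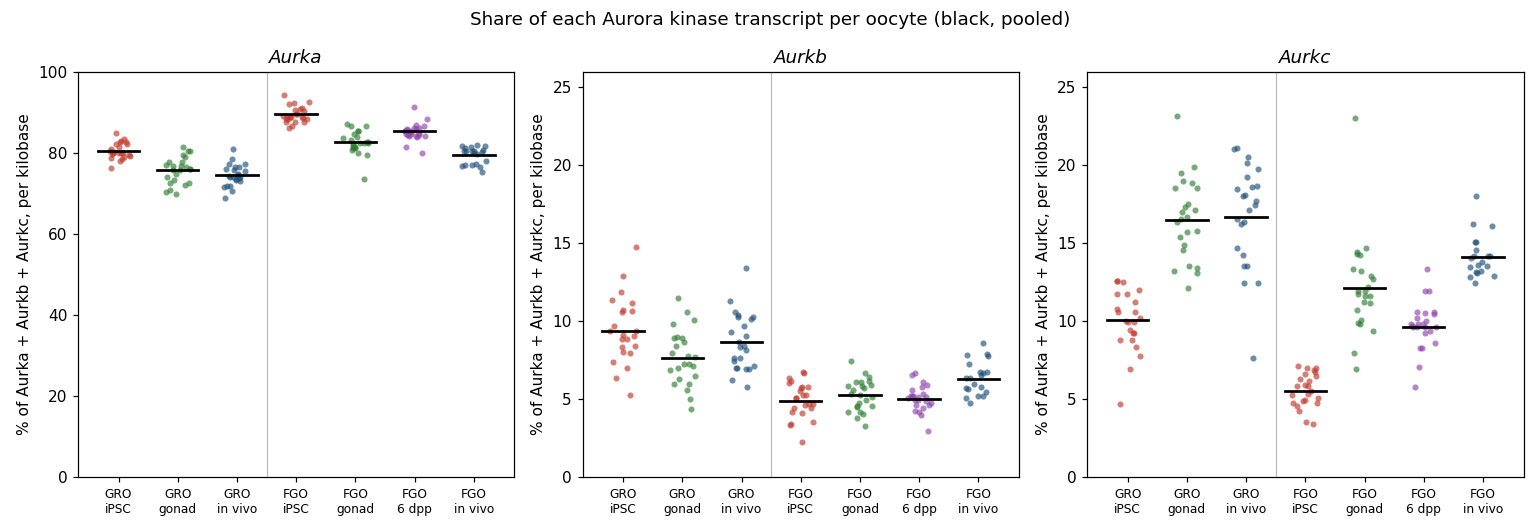
Share of Aurka, Aurkb and Aurkc in the sum of the 3 per kilobase (vertical axes, %; the Aurka panel has its own scale) in each oocyte (points), with the pooled share as a black line. Aurkc shares of iPSC-derived FGOs lie between 3.40% and 7.11%, below all in vivo FGOs.

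Bub1b differed between iPSC-derived and gonad-derived oocytes to a smaller extent. Its ratio was -0.51 in IVP@GRO, where 12 of 23 iPSC-derived GROs were below every gonad-derived GRO, and -0.30 in IVP@FGO. In iPSC-derived GROs 17 oocytes were at or below 500 CPM and the other 6 at or above 650 CPM. Over the whole of culture it was -0.37 in GROs and -0.07 in FGOs, where pooled levels were 1369 CPM in iPSC-derived and 1438 CPM in in vivo FGOs. Bub3 had ratios of 0.29 in IVP@FGO and 0.33 in IVG@FGO, and 20 of 24 iPSC-derived FGOs were above every in vivo FGO. Mad2l1 was at 440 CPM in iPSC-derived and 356 CPM in in vivo FGOs, a ratio of 0.31, with 18 of 24 above every in vivo FGO. The lowest in vivo FGOs for Mad2l1 were oocytes 19 and 5, at 279 and 288 CPM, which the study left out of its fits. The ratios of Mad2l1 and Bub3 with only the oocytes that the study used are not given here. Cenpe had ratios of 0.38 in IVP@FGO, or 0.53 without gonad-derived FGO 19, and of -0.32 in IVG@FGO. In IVD@FGO its ratio was -0.12, or -0.28 without that oocyte. Plk1 had ratios between -0.17 and 0.05 in all culture comparisons.

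**Figure D4:**
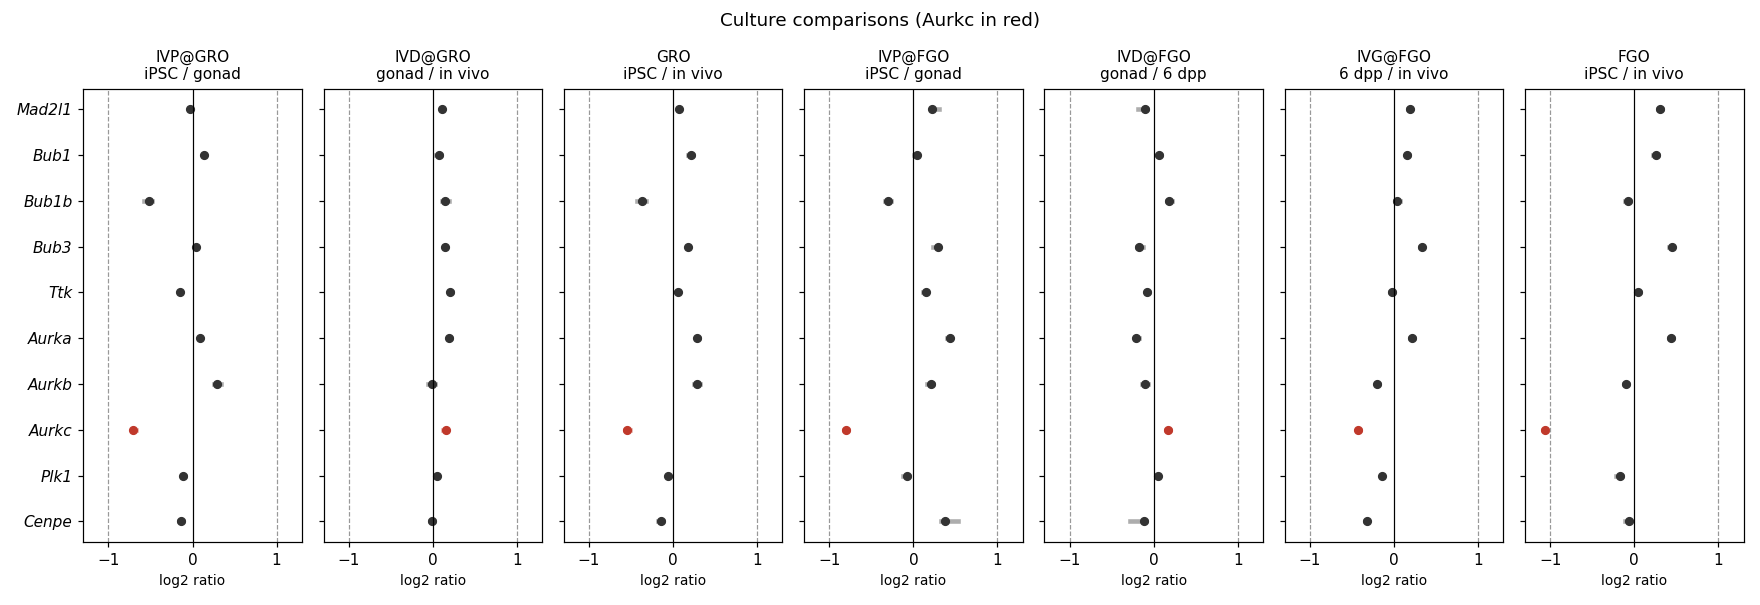
Log2 ratio of each member (rows) in 7 culture comparisons (panels, each titled with its groups as numerator and denominator), with pale bars for the range when any 1 oocyte is left out and dashed lines at 2-fold. Aurkc, in red, is at -0.70 in IVP@GRO, -0.81 in IVP@FGO and -1.06 in iPSC-derived over in vivo FGOs, and no other member passes 2-fold.

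By pooled level iPSC-derived FGOs were the highest group for 5 members (Mad2l1, Bub1, Bub3, Ttk and Aurka) and in vivo FGOs for 3 (Aurkc, Plk1 and Cenpe). For Ttk, iPSC-derived FGOs were below in vivo FGOs by medians (-0.04) and with the oocytes that the study used (-0.06), and for Bub1 they were below gonad-derived FGOs by medians (-0.02). Gonad-derived FGOs were the highest for Bub1b, and iPSC-derived GROs for Aurkb. The highest group exceeded the lowest by 1.25-fold for Bub1 and Aurkb and by 3.30-fold for Bub1b, with the others in between. Of 60 pairs of neighbouring groups in these orders, 59 overlapped in their oocytes, and the pair that did not was that of iPSC-derived FGOs and gonad-derived GROs for Bub1b. For 10 of the 60 pairs the counting intervals overlapped too.

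It was next asked whether the members vary together from oocyte to oocyte within a group. Each gene's log2(CPM + 0.5) was centred on its group mean, and Pearson's r was taken over all oocytes as a description, since the oocytes share culture, depth and the sum to which CPM is scaled. Over 45 pairs of members the median r was 0.06, from -0.38 to 0.72, against a median of 0.01 over all pairs of genes with at least 10 CPM. Bub3 with Aurka had the highest r (0.72), followed by Ttk with Aurka (0.54), and these were the 2 pairs above 0.5. Bub3 with Aurka had a positive r in all 7 groups, from 0.21 in in vivo GROs to 0.91 in in vivo FGOs. Without gonad-derived FGO 19 the r of Bub3 with Aurka was 0.68, that of Ttk with Aurka 0.46, and that of Mad2l1 with Bub3 went from -0.18 to 0.51. Bub3 with Cenpe went from -0.37 to -0.02. Bub1 with Aurkc stayed at -0.36 with or without that oocyte. No r is given without the in vivo GROs that stood apart for Bub1. Over all oocytes Bub1b had no r above 0.14 with any other member.

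**Figure D5:**
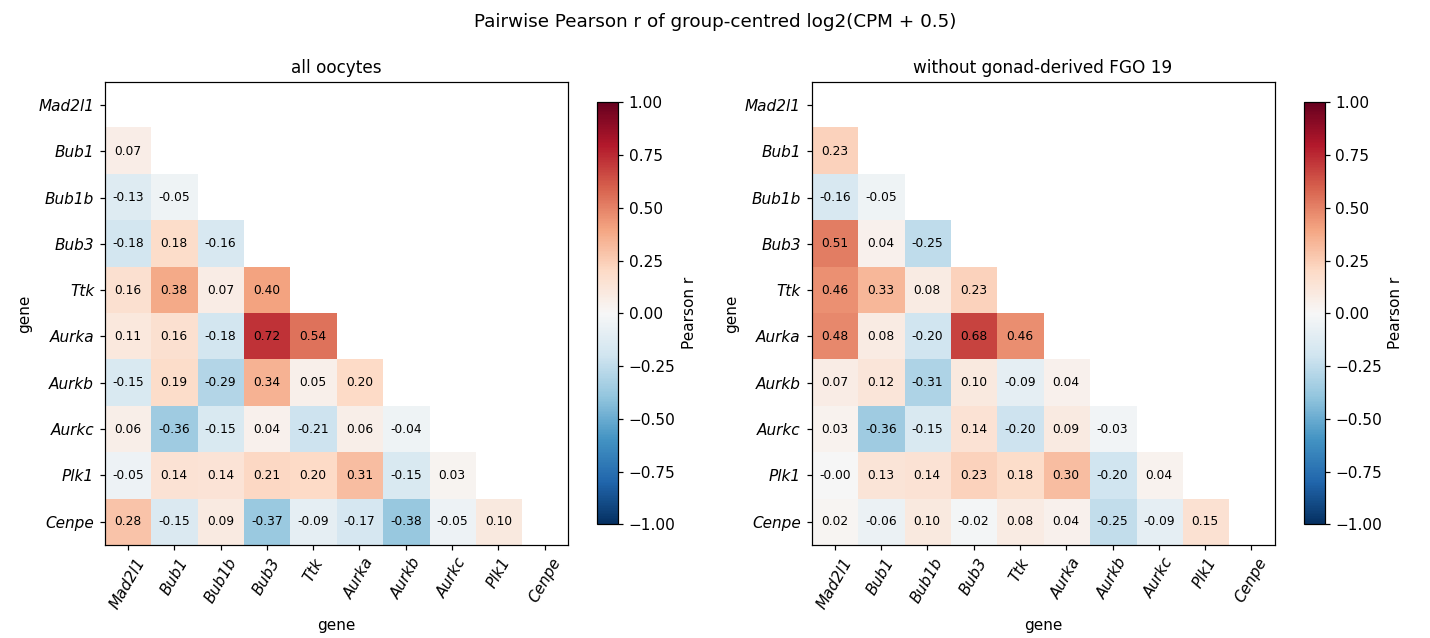
Pearson's r between members (rows and columns) of group-centred log2(CPM + 0.5), over all oocytes on the left and over all but gonad-derived FGO 19 on the right, with colour and number giving r. The pair of Bub3 and Aurka stays highest, at 0.72 and 0.68, while several pairs with Mad2l1 or Cenpe change when 1 oocyte is left out.

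Among 7145 other genes of at least 10 CPM, those most like each member over all oocytes were named by r alone. For Bub1b they were Bms1 (0.81), Eef2k (0.80) and Zfp212 (0.79), and the same 3 genes came first without gonad-derived FGO 19. For Aurkc they were Srgn (0.50), Pcgf1 (0.49) and Lrp6 (0.48), likewise the same 3 without that oocyte. Bub1 was most like Nup160 (0.72), Supt20 (0.67) and Qrich1 (0.67), and Cenpe most like Kif20b (0.60), Smc4 (0.56) and Cenpf (0.52). Ttk was most like Prepl (0.69), Clcc1 (0.67) and G6pdx (0.65), and Aurka most like Zfp57 (0.67), Slc25a17 (0.64) and Pak1ip1 (0.62). Plk1 was most like Pak7 (0.54), Exo1 (0.50) and Pold3 (0.49). Aurkb was most like Krtcap2 (0.56), Pafah1b3 (0.53) and Srprb (0.52). The lists of Bub3 (Calm2, 0.87; Sdhd, 0.84; Psmb7, 0.84) and Mad2l1 (Rbbp7, 0.72; Ccndbp1, 0.70; Trmt11, 0.69) rested on gonad-derived FGO 19, because none of these 6 genes stayed among the first 3 without it. Of the remaining lists, those of Bub1 and Cenpe kept 2 of 3 genes without it, and those of Ttk, Aurka, Aurkb and Plk1 kept 1. No list is given without the in vivo GROs that stood apart for Bub1 and Cenpe, so how far these lists rest on them is not known.

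The wider machinery was read from a list of 74 genes, of which 63 were matched and the other 11 were not analysed here. In in vivo growth 1 of 62 partners with enough reads was at least 2-fold higher in FGOs and 4 were at least 2-fold lower, against the 23.7% of all genes given above for either direction. The higher gene was Plk2 (1.24), a Polo-like kinase of low level here (1.14 CPM in GROs and 3.36 CPM in FGOs). Those lower were Nsl1 (-1.14) and Spc24 (-1.13), which are parts of the outer kinetochore, Plk3 (-1.09), and Ube2c (-1.04), the ubiquitin-conjugating enzyme that works with the APC/C. Ube2c went from 525.6 to 255.2 CPM in vivo, and its growth ratios were -1.09 in gonad-derived and -1.67 in iPSC-derived oocytes. In gonad-derived oocytes 1 of 61 partners was at least 2-fold higher (Plk2, 2.09) and 1 lower (Ube2c), against 15.8% of all genes. In iPSC-derived oocytes 3 of 61 were higher, Plk2 (1.71), Plk4 (1.14) and Cdc20 (1.04), and 3 lower, Ube2c, Kntc1 (-1.56) and Nsl1 (-1.52), a smaller share than the 22% of all genes. Plk4 and Cdc20, the APC/C activator that the checkpoint holds, were named after their values were seen, as their in vivo ratios of 0.98 and 0.62 were under 2-fold. The median partner ratio was 0.11 in vivo, 0.04 in gonad-derived and 0.07 in iPSC-derived oocytes.

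In the culture steps few partners were at least 2-fold apart. None was in IVP@GRO, IVD@GRO or IVD@FGO, where 3.83%, 7.04% and 2.59% of all genes were. Over all genes the share at least 2-fold apart was 6.21% in IVP@FGO, 4.38% in IVG@FGO and 14.5% between iPSC-derived and in vivo FGOs, and the counts of partners are near or below these shares. In IVP@FGO 1 of 61 was higher, Mad2l1bp (1.10), which codes for the adaptor p31comet that helps take Mad2l1 off Cdc20, and 1 lower, Kntc1 (-1.14), a part of the RZZ complex that brings Mad1l1 and Mad2l1 to kinetochores. Mad2l1bp was at 134 CPM in iPSC-derived and 62.5 CPM in gonad-derived FGOs, and at 116 and 63.8 CPM in the GROs of these sources, a ratio of 0.85. In IVG@FGO, of 62 partners, Plk2 (1.24) and Plk3 (1.12) were higher in 6 dpp FGOs and Kntc1 (-1.495) was lower. Levels of Plk2 and Plk3 were low, at 8.6 and 4.4 CPM in 6 dpp FGOs, against 3.36 and 1.78 CPM in in vivo FGOs. No value without 6 dpp FGO 12 is given. Kntc1 was at 48.3 CPM in in vivo FGOs, against 27.0 CPM in gonad-derived, 16.8 CPM in 6 dpp and 12.0 CPM in iPSC-derived FGOs. Of 62 partners, 3 were higher and 4 lower in iPSC-derived than in in vivo FGOs, and none was 2-fold apart between the corresponding GROs, against 9.99% of all genes. Besides Mad2l1bp, Plk2 and Kntc1 these were Anapc2 (1.02), an APC/C subunit, and Cenpf (-1.16), Ajuba (-1.11) and Ndc80 (-1.05), which were named after their values were seen. Ajuba was below 1 CPM in every group. Ndc80, the microtubule-binding part of the outer kinetochore, was at 69.8 CPM in iPSC-derived and 146 CPM in in vivo FGOs.

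Of 9 measured partners of the Aurora kinases and Plk1, Ajuba alone was 2-fold apart in any of the 10 comparisons, at the low level given above. The other 8 are given for their roles, outside the rule for naming partners. Birc5 (survivin), the passenger complex subunit, was at 989 to 1147 CPM in all 7 groups. Incenp, the scaffold that activates Aurkb and Aurkc, had growth ratios of -0.88 in vivo, 0.37 in gonad-derived and 0.59 in iPSC-derived oocytes. Haspin, whose mark on chromatin recruits the passenger complex, had ratios of 0.17, 0.36 and 0.46. Tpx2, the activator of Aurka on the spindle, had growth ratios of 0.33, 0.64 and 0.37, and Bora, which helps Aurka to activate Plk1, had 0.65, 0.31 and 0.25. For the centrosome and spindle pole proteins these ratios were -0.37, -0.13 and -0.53 for Cep192, 0.66, 0.27 and 0.25 for Ckap5, and 0.03, -0.10 and -0.39 for Tacc3.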

How the data were processed

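Polyadenylated RNA of single oocytes had been sequenced by Smart-seq2. Raw counts of reads for each gene, with an exonic length, were what the authors deposited. By the study's methods they were made from single-end reads aligned with STAR to GRCm38 (mm10) with spike-ins, reads of several placements being put at 1 of them at random, and uniquely mapped reads then counted with QuasR on 1 randomly chosen transcript per gene. Reads shared by close copies of a gene were thus not counted, and strand use and the QuasR version are not given in the sources used here. The deposited length column (another unit, bases) was used only to set genes against each other. All columns of oocytes were used and 0 were without a sample. Of 21950 identifiers, 21907 matched RefSeq (GRCm38.p6), which supplied symbols and coordinates.

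Within a group, summed counts over summed library totals gave CPM (per 1000000 reads) with exact Poisson 95% intervals. Ratios used a pseudocount of 0.5 CPM, so they understate changes of low genes. The background of each comparison was every gene above 1 CPM in at least 3 oocytes of its groups. A lowest and highest ratio came from leaving out each oocyte in turn. Depth was 2.17 to 13.7 M reads per oocyte, and intervals cover counting error only. Alternatives were pseudocounts of 0.1 and 2 CPM, medians, mean logs, TMM (edgeR 4.0.16), DESeq2 1.42.0 size factors, the 154 oocytes that the study used, and a 4-fold rule. Leaving out gonad-derived FGO 19, or FGOs 5 and 22 of that group (the 2 shallowest), or in vivo GROs 17 to 22 and 24, was chosen after seeing the data, as was the longest GENCODE transcript as a gene's length. Python 3.11.15, numpy 2.4.6, pandas 2.3.3, scipy 1.17.1 and R 4.3.3 were used.

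All members were named. Of the listed partners, a gene was named where at least 2-fold apart in growth in vivo or a culture step, up to 4 per direction. Partners of the Aurora kinases and Plk1 were named outside that rule, after their values were seen. For each member the 3 genes of highest r were named. The members and lists were chosen with earlier results of these data known.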

Additional observations from a re-analysis of the deposited data

How the results depend on the processing

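No test was made, so the alternatives bear on values only. All 990 alternative values of the 100 member ratios moved by less than 1 SD between oocytes. In 11 of the 100 ratios some alternative changed the sign, and the greatest of them was that of Bub1 between iPSC-derived and in vivo GROs, which went from 0.21 to -0.02 without in vivo GROs 17 to 22 and 24. With a 4-fold rule no member passed in growth in vivo (0), in gonad-derived growth (0), in iPSC-derived growth (0) or between iPSC-derived and in vivo FGOs (0), where 1 had passed 2-fold in each. With TMM scaling 2 members passed 2-fold in iPSC-derived growth and with DESeq2 size factors also 2, because Aurka passed with Bub1b. Without division by length the pooled Aurkc share of the Aurora kinases was 6.62% in iPSC-derived, 11.1% in gonad-derived and 11.3% in in vivo GROs. In FGOs it was 3.58% (iPSC-derived), 6.34% (6 dpp), 8.05% (gonad-derived) and 9.42% (in vivo), which follows from Aurka and Aurkb having longer counted transcripts. Leaving out gonad-derived FGOs 5 and 22 changed no count of members at least 2-fold apart, nor did leaving out oocyte 19 or those 7 in vivo GROs. No paired analysis was possible because the labels do not say what the numbers of the oocytes stand for and no test was made. At this depth 3 reads in a group are 0.0181 to 0.0207 CPM, far below every member.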
